A study of Rattus norvegicus with 6 samples.

Results

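Mitochondrial ribosomal protein genes were described in primary rat hippocampal neurons after silencing of Ncoa3, which encodes a transcriptional coactivator of nuclear receptors. The members were all genes whose symbol in the platform annotation is Mrpl or Mrps followed by a digit. They numbered 72 of the 18166 genes measured, each on a single probe set. RefSeq holds 78 protein-coding rat genes with such symbols, and 6 of them were not analysed here. The arrays came from 3 cultures infected with adeno-associated virus carrying an Ncoa3 shRNA and 3 infected with virus carrying a control shRNA. Each of 3 experiments gave 1 array per shRNA. All cultures were made from hippocampi of rat embryos at day 18, held in 10 µM of the nucleoside analogue FUDR, which stops dividing cells, infected at 4 days in vitro with 1800000 infectious units per ml and harvested at 14 days in vitro. The cultures were not described as sorted, so RNA of glia may be present in every array, and a lower signal from fewer cells of a type cannot be told apart from less RNA per cell.

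Mitochondria hold ribosomes of their own, which translate the few proteins still encoded by mitochondrial DNA, all of them subunits of the respiratory chain or the ATP synthase. The ribosomal RNAs of these particles come from mitochondrial DNA. Every protein of the small subunit (mostly Mrps genes) and of the large subunit (mostly Mrpl genes) is encoded in the nucleus, made in the cytosol and imported. Some of these proteins descend from bacterial ribosomal proteins and others were added in mitochondria. Neurons depend on this machinery for their supply of respiratory complexes.

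Promoter sequences are given first for the members on which the results turn: a pair that was lower after silencing (Mrpl47 and Mrpl10), the gene with the highest change (Mrpl14), a gene with several motif matches (Mrps18b) and a gene that shares its promoter with another member (Mrpl46). RefSeq windows (build GRCr8) of 300 bases, 250 before to 50 after an annotated start, matched 58 of the 72 members in 60 windows. The first 280 bases are printed 5′ to 3′ on the gene's strand, so that 30 bases follow the start, with capitals for motif matches. The printed stretches lie at chr2:117447332-117447611 on the minus strand for Mrpl47, chr10:82522220-82522499 on the plus strand for Mrpl10, chr9:22811204-22811483 on the minus strand for Mrpl14, chr20:2842756-2843035 on the plus strand for Mrps18b and chr1:142117001-142117280 on the minus strand for Mrpl46.
Mrpl47: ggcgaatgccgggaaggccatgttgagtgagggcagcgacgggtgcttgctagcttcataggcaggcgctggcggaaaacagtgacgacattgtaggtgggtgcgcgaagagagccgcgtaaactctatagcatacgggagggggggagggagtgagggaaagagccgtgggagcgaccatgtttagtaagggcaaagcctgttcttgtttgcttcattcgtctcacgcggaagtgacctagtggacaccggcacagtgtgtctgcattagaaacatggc
Mrpl10: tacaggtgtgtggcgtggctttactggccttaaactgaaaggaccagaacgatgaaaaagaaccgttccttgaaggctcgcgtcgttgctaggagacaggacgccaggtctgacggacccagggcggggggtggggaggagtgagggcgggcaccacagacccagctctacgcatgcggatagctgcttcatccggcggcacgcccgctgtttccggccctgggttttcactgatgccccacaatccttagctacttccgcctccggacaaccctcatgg
Mrpl14: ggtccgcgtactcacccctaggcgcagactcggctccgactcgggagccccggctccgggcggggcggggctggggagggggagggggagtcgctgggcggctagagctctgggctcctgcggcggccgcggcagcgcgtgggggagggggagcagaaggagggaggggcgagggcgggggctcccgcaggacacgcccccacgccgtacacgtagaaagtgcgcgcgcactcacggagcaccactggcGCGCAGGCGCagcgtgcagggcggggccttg
Mrps18b: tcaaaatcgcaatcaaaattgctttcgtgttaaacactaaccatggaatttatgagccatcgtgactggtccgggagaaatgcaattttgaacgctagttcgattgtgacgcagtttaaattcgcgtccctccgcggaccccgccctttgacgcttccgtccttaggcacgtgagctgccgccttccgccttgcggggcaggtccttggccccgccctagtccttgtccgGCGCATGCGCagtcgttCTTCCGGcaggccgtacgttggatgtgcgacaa
Mrpl46: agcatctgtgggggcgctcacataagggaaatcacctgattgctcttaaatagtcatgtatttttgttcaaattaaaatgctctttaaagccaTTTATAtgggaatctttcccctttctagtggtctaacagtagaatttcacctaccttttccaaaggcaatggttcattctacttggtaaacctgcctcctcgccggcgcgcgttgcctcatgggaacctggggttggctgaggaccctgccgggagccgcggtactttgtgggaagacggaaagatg

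These windows were searched on both strands for 5 motifs. GCGCA and GCGC with any 1 base between them make up the site of NRF1, a transcription factor known for nuclear genes of mitochondrial proteins, and this motif was found in 9 of the 60 member windows (15.0%) and in 5.67% of the 21851 windows of all protein-coding genes. CCGGAAG, the core bound by ETS factors such as GABPA, was found in 20 member windows (33.3%) and in 10.7% of all windows. AAGATGGC, the site of YY1, was found in 15 member windows (25.0%) and in 3.67% of all windows. AAGGTCA, the site of estrogen-related receptors, was found in 3 member windows (5.00%, against 3.78% of all), and TATAAA in 8 (13.3%, against 13.0%). At least 1 of the NRF1, ETS and YY1 motifs stood in 33 member windows (55.0%) and in 17.9% of all windows. Mrps18b held an NRF1 match just before its start, an ETS match across it and a YY1 match beyond the printed stretch, whereas Mrpl14 held an NRF1 match across its first annotated start. The printed Mrpl46 stretch held a TATAAA match, on the opposite strand, and the Mrpl46 window also held a YY1 match that does not lie wholly within the printed stretch. A match is a stretch of letters and not a measured binding site.

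Members often start next to a gene on the opposite strand. Of the 60 member windows, 14 (23.3%) overlapped the window of a gene on the other strand, as did 5.97% of all windows. Mrpl46 and Mrps11, a large and a small subunit gene, start head to head on chromosome 1 and share 267 bases of window, and Mrpl47 shares 257 bases on chromosome 2 with Ndufb5, a subunit gene of respiratory complex I. Other neighbours of this kind include Psma2 (a proteasome subunit) beside Mrpl32, Tcp1 (a chaperonin subunit) beside Mrpl18 and Fau (a cytosolic ribosomal protein fused to a ubiquitin-like part) beside Mrpl49.

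Ncoa3 itself was lower on every Ncoa3 shRNA array. All values below are log2 signals after the 6 arrays were given the same distribution (quantile normalization) unless called deposited, because the array medians of the deposited values were 6.81 to 6.97 with Ncoa3 shRNA and 7.08 to 7.25 with control shRNA (p = 0.1 by exact permutation, two-sided; no smaller value is possible with 3 against 3). Ncoa3 measured 7.60, 7.60 and 7.45 with Ncoa3 shRNA in experiments 1, 2 and 3, and 8.63, 8.72 and 8.22 with control shRNA, a change of -0.97 ± 0.142 (SE; limma, adjusted p = 0.00747). Many probe sets carry exactly the same deposited value on several arrays of a group (19.8% on all 3 Ncoa3 shRNA arrays, 19.5% on all 3 control arrays), while arrays of different groups share 0 to 2. How the values came to be shared is not stated, and a processing step that differed between the groups cannot be told apart from the shRNA. Of the members, 46 had 3 distinct deposited values in each group, 3 had a single value on all Ncoa3 shRNA arrays, 4 had a single value on all control arrays, and 0 had this in both groups.

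Most mitochondrial ribosomal protein genes did not pass the test between the shRNAs. At an adjusted p under 0.05 by limma, 4 of 72 members fell, 0 rose and 68 did not pass, which is 5.56% where 19.5% of all genes passed (10.5% higher, 9.04% lower). The members are brighter than most genes, and of the 9083 genes at or above the median signal, which include 65 members, 10.4% passed (5.85% higher, 4.58% lower). At an unadjusted p below 0.05, 10 of 72 members differed, 2 of them higher, beside 33.6% of all genes (17.9% higher). The median change of the members was 0.06 and that of all genes 0.01, and member changes ran from -0.58 to 0.38. Of the members, 15 were lower in all 3 experiments, 21 were higher in all 3 and 36 had mixed signs. Arrays of the groups did not overlap for 9 members that were lower with Ncoa3 shRNA and 2 that were higher, where 19.0% and 21.5% of all genes were lower or higher without overlap. The scaling of the arrays decided the sign of the median: with the deposited values the median change of members was -0.20 and that of all genes -0.25. There 12 members fell and 0 rose, beside 47.2% of all genes (3.97% higher, 43.3% lower). With the deposited values and the experiment as a block 25 members fell and 0 rose, beside 60.2% of all genes (4.33% higher, 55.9% lower). With arrays centred on their medians 4 members fell and 2 rose, beside 21.5% of all genes (12.4% higher, 9.07% lower).

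**Figure D1:**
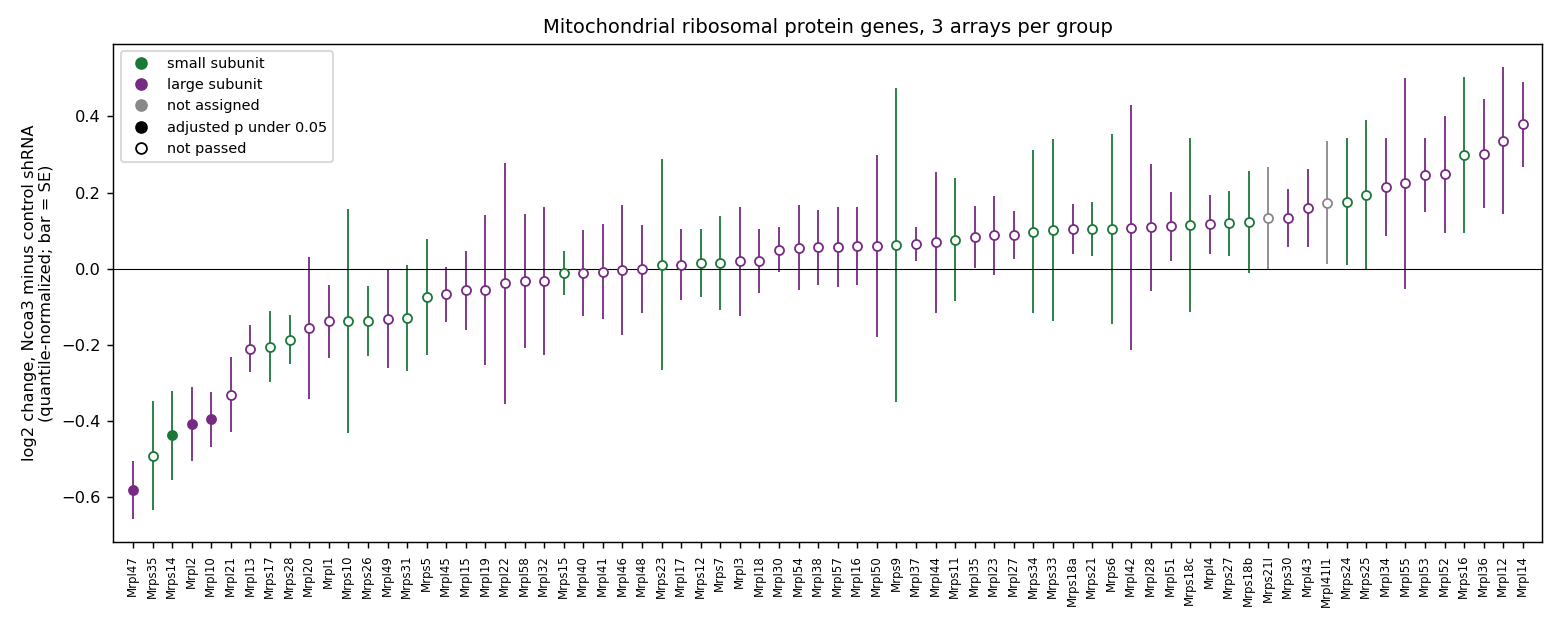
Log2 change (Ncoa3 shRNA minus control shRNA, quantile-normalized signal) of each of the 72 mitochondrial ribosomal protein genes, with bars for the SE (3 arrays per group), coloured by subunit. Filled points are the 4 genes past an adjusted p of 0.05, Mrpl47, Mrps14, Mrpl2 and Mrpl10, all at the lower end; the changes run from -0.58 to 0.38.

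The 4 members that fell belong to both subunits and all have bacterial relatives, as do 42 of the 72 members. Mrpl47, whose bacterial counterpart sits beside the exit of the peptide tunnel in the large subunit, measured 9.22, 9.26 and 9.28 with Ncoa3 shRNA in experiments 1, 2 and 3, and 9.95, 9.72 and 9.83 with control shRNA. Every Ncoa3 shRNA array was below every control array. Mrpl47 fell by 0.58 ± 0.0769 on the log2 scale (SE, 3 arrays per group; limma, adjusted p = 0.00542), and its probe set is 17746806. Its deposited value was the same in experiments 1 and 2 with Ncoa3 shRNA. Its head-to-head neighbour Ndufb5 stood at -0.06 ± 0.0656 (SE; adjusted p = 0.612).

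Mrps14, a protein of the head of the small subunit, measured 10.00, 9.95 and 9.87 with Ncoa3 shRNA and 10.50, 10.50 and 10.12 with control shRNA. The groups did not overlap, though the control array of experiment 3 lay close to the Ncoa3 shRNA arrays. It fell by 0.44 ± 0.117 (SE; 1.35-fold; limma's adjusted p = 0.0488), close to the threshold. Mrpl2, which in bacteria helps to form the peptide-bond centre, measured 8.10, 8.11 and 7.81 with Ncoa3 shRNA and 8.41, 8.41 and 8.42 with control shRNA. The Ncoa3 shRNA array of experiment 3 was the lowest, and the 3 control arrays carry a single deposited value, as do the Ncoa3 shRNA arrays of experiments 1 and 2. Mrpl2 fell by 0.41 ± 0.0966 (SE; 1.33-fold; adjusted p = 0.0335).

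Mrpl10 anchors the flexible stalk that brings translation factors to the large subunit, and Mrpl12 is the stalk protein it carries. Mrpl10 measured 10.10, 10.18 and 10.15 with Ncoa3 shRNA and 10.48, 10.47 and 10.66 with control shRNA, with no overlap, and fell by 0.39 ± 0.0720 (SE; 1.31-fold; limma's adjusted p = 0.0150). Mrpl12 measured 10.45, 10.47 and 9.87 with Ncoa3 shRNA and 10.09, 10.02 and 9.68 with control shRNA. The change of Mrpl12 was 0.34 ± 0.194 (SE), in the opposite direction to Mrpl10 in every experiment, and did not pass (adjusted p = 0.284), while it passed with the experiment as a block (0.0301). The third gene of this group, Mrpl11, was not analysed here.

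**Figure D2:**
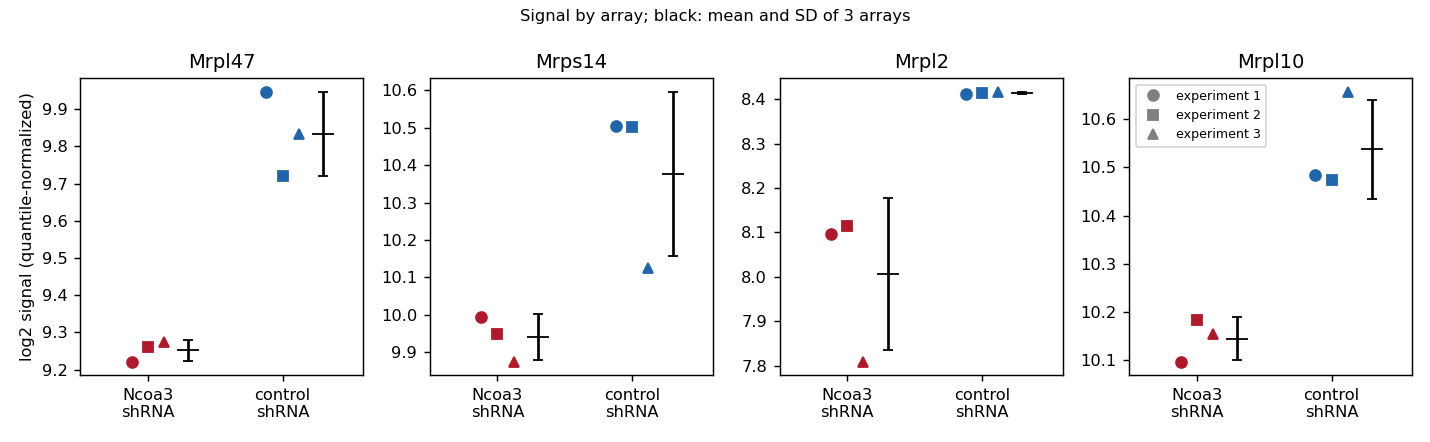
Quantile-normalized log2 signal of Mrpl47, Mrps14, Mrpl2 and Mrpl10 on each array, with Ncoa3 shRNA (red) left of control shRNA (blue) and a marker for each experiment; the black bar is the mean and SD of 3 arrays. In each panel every Ncoa3 shRNA array lies below every control array, and the axes do not start at 0.

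The number of members past the threshold depends on how the shared experiment is treated. The labels tie an array of each shRNA to the same experiment, and the fit with the experiment as a block called 8 members lower and 4 higher, beside 39.3% of all genes (18.6% lower, 20.8% higher). The 8 members named in this paragraph were chosen after their values were seen. Those added at the lower side were Mrps35, a protein added in mitochondria to the small subunit (-0.49; adjusted p = 0.0614, and 0.0100 with the block), Mrpl21 (-0.33; 0.0664 and 0.0150), Mrpl13 (-0.21; 0.0618 and 0.0345) and Mrps28 (-0.19; 0.101 and 0.0250). Mrps35 measured 8.29, 8.29 and 8.05 with Ncoa3 shRNA and 8.79, 8.89 and 8.42 with control shRNA, so each Ncoa3 shRNA array was below its partner and below all controls. Those added at the higher side were Mrpl14, a protein at the face between the subunits (0.38; adjusted p = 0.0630, and 0.0320 with the block), Mrpl12, Mrps16 (0.30; 0.368 and 0.0186) and Mrps30 (0.13; 0.278 and 0.0449). With the deposited values these stood at 0.12, 0.09, 0.01 and -0.05 in that order, and none passed with or without the block. The members added at the lower side passed in both, where 43.3% of all genes were lower without the block and 55.9% with it. Mrpl14 measured 9.81, 9.77 and 9.46 with Ncoa3 shRNA and 9.40, 9.25 and 9.26 with control shRNA, with no overlap. Mrps16 measured 8.93, 8.93 and 8.42 with Ncoa3 shRNA and 8.71, 8.55 and 8.12 with control shRNA, higher within each experiment while the groups overlapped. Mrps28 had the same deposited value on all Ncoa3 shRNA arrays and Mrpl13 on all control arrays.

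The calls rest on few arrays. Of 9 fits that left out 1 array or 1 experiment, Mrpl47 passed in 7 and was lost without experiment 1 (adjusted p = 0.149) or experiment 2 (0.0886). Mrpl10 passed in 4, and without control shRNA replicate 1, Ncoa3 shRNA replicate 1 or Ncoa3 shRNA replicate 2 its adjusted p was 0.0527, 0.0648 and 0.0521, rising to 0.207 without experiment 1 and 0.151 without experiment 2. Mrpl2 passed in 2 of the fits, those without Ncoa3 shRNA replicate 3 and without experiment 3, and the other 7 gave adjusted p from 0.0625 to 0.266. Mrps14 passed in 2, without control shRNA replicate 3 and without experiment 3, and the other 7 gave 0.101 to 0.342. The direction of these 4 genes was the same in all 9 fits. Without experiment 3, 10 members fell and 5 rose, beside 46.0% of all genes (21.6% lower, 24.4% higher).

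Split by subunit, 1 of 24 small subunit genes fell (median change 0.04) and 3 of 46 large subunit genes fell (median 0.06), with 0 rises in either. By ancestry, 4 of 42 proteins related to bacterial ones fell (median 0.02) and 0 of 28 that were added in mitochondria passed (median 0.06). Among those added in mitochondria the lowest change was that of Mrps35, at -0.49, and the highest that of Mrpl52, of the central protuberance, at 0.25. No test compared these classes. Of the 7 central protuberance genes 0 passed, with changes from -0.01 to 0.25, and of 6 exit tunnel genes 1 passed, Mrpl47, with the others up to 0.09. Mrpl41l1 and Mrps21l, likely copies of Mrpl41 and Mrps21 by name, were left without a class, and probe sets of such copies may read each other's transcripts. RefSeq also lists pseudogene copies named after 22 of the members, among them 2 of Mrpl47 and 1 of Mrpl2, whose share in the signal is unknown.

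The paralogs Mrps18a, Mrps18b and Mrps18c descend from a single bacterial small subunit protein, and in mammals Mrps18a sits in the large subunit. Mrps18a measured 11.61, 11.57 and 11.41 with Ncoa3 shRNA and 11.43, 11.47 and 11.37 with control shRNA, a change of 0.10 ± 0.0652 (SE; limma's adjusted p = 0.323). Mrps18b measured 9.78, 10.01 and 9.54 with Ncoa3 shRNA and 9.74, 9.71 and 9.51 with control shRNA, a change of 0.12 ± 0.135 (SE; 0.581). Mrps18c measured 10.52, 10.38 and 9.96 with Ncoa3 shRNA and 10.58, 10.11 and 9.83 with control shRNA, a change of 0.11 ± 0.229 (SE; 0.774). All 3 paralogs overlapped between the groups, and in each the arrays of experiment 3 were the lowest of their group.

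Signals of different probe sets cannot be ranked as transcript levels. The members' mean deposited signals ran from 7.02 to 12.07, where the median gene stood at 7.89. The 4 members with the highest signal were Mrpl37 (change 0.06; limma's adjusted p = 0.362), Mrpl4 (0.12; 0.346), Mrps24 (0.18; 0.516) and Mrpl53 (0.25; 0.135). Mrpl53 measured 11.70, 11.75 and 11.62 with Ncoa3 shRNA and 11.62, 11.25 and 11.46 with control shRNA, and the groups parted only by a margin smaller than this rounding. Those with the lowest signal were Mrps9 (0.06; 0.935), Mrps28, Mrpl42 (0.11; 0.855) and Mrpl18 (0.02; 0.891). None of these other than Mrps28 passed with the block. Mrps9 had the widest spread among controls, 7.15, 7.60 and 6.22 (SD 0.702, where the median SD of members was 0.154 with Ncoa3 shRNA and 0.160 with control shRNA).

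The arrays of experiment 3 held lower signals of most members in both groups. Relative to the mean of experiments 1 and 2, 65 of 72 members were lower in experiment 3 with Ncoa3 shRNA (median -0.24) and 62 with control shRNA (median -0.19). In both groups at once 59 of 72 (81.9%) were lower, as were 56.6% of all genes, whose medians were -0.09 and -0.08. In the deposited values 62 members (86.1%) and 36.3% of all genes were lower in both groups. Of the genes at or above the median signal, which include 65 members, 52.7% were lower in both groups, and 61.2% in the deposited values. The shift was seen in 22 of 24 small subunit genes (medians -0.35 and -0.33) and in 36 of 46 large subunit genes (-0.23 and -0.18). Of cytosolic ribosomal protein genes 60.6% were lower in both groups (123 of 203), and of respiratory chain and ATP synthase genes 64.8% (59 of 91). No test compared these lists.

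**Figure D3:**
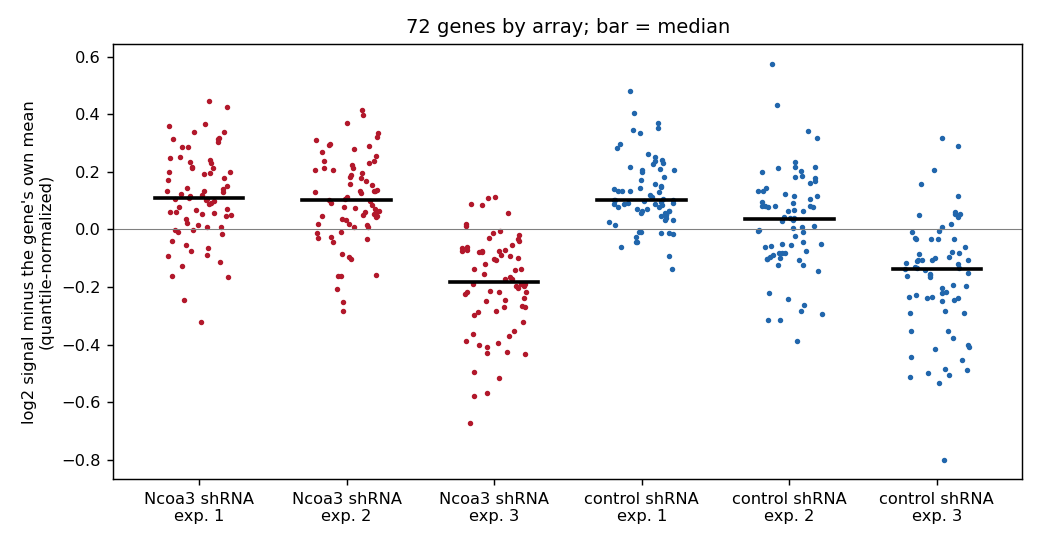
Each point is a mitochondrial ribosomal protein gene on an array, as its quantile-normalized log2 signal minus the gene's own mean over the 6 arrays; the bar is the median of 72 genes. With Ncoa3 shRNA the medians are 0.11, 0.10 and -0.18 in experiments 1, 2 and 3, and with control shRNA 0.10, 0.04 and -0.14.

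Tested gene by gene with limma's F test for the experiments, 13 of 72 members (18.1%) differed at an adjusted p of 0.05, where 18.8% of all genes did. In all 13 the mean of experiment 3 was the lowest, as it was in 77.9% of all genes that passed. With the deposited values 1 member passed, Mrps10, where 1.91% of all genes did. Mrps10, a small subunit protein with a bacterial relative, measured 9.86, 9.49 and 9.01 with Ncoa3 shRNA and 10.00, 9.66 and 9.11 with control shRNA (adjusted p = 0.0287). Mrps6 measured 8.02, 7.92 and 7.34 with Ncoa3 shRNA and 7.87, 7.88 and 7.23 with control shRNA (0.0310). Mrps23, added in mitochondria to the small subunit, measured 9.003, 8.904 and 8.205 with Ncoa3 shRNA and 8.936, 8.899 and 8.245 with control shRNA (0.0310). Mrpl42, a large subunit protein, measured 7.83, 7.67 and 6.80 with Ncoa3 shRNA and 7.64, 7.46 and 6.87 with control shRNA (0.0413). For these 4 genes the shRNA changes were -0.14, 0.10, 0.01 and 0.11 in the order given, and did not pass. Mrpl47 and Mrpl10, which fell between the shRNAs, did not share the lower level of experiment 3 (0.03 and 0.01 with Ncoa3 shRNA, -0.00 and 0.18 with control shRNA). Of the others that fell, Mrps14 was lower in experiment 3 in both groups (-0.10 with Ncoa3 shRNA, -0.38 with control shRNA), and Mrpl2 with Ncoa3 shRNA alone (-0.30, against 0.00 with control shRNA).

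Most markers of astrocytes differed among the experiments, though not all in the same direction. In experiment 3, 3 of 9 were lower than in experiments 1 and 2 with Ncoa3 shRNA, 2 with control shRNA and 2 in both groups. The summed signal of astrocyte markers on a linear scale, over 9 measured of 10 listed, was 6109, 6800 and 9081 with Ncoa3 shRNA in experiments 1, 2 and 3. With control shRNA it was 6879, 7303 and 9137, and 7 of 9 passed the F test, where 18.8% of all genes did. The sum of 11 of 12 neuron markers was 59564 to 63620 with Ncoa3 shRNA and 60425 to 64442 with control shRNA, and 0 of them passed the F test. Between the shRNAs 1 astrocyte marker rose and 0 fell, and 0 neuron markers rose and 1 fell (19.5% of all genes passed). With the deposited values 2 astrocyte and 4 neuron markers fell and 0 rose (43.3% of all genes fell). With arrays centred on their medians 1 astrocyte and 3 neuron markers rose and 0 fell (21.5% of all genes passed). The part of astrocytes in the lower member signals of experiment 3 was not tested. The sum of 10 microglial markers was 906 to 1044 on Ncoa3 shRNA arrays and 840 to 853 on control arrays. Of these markers 3 rose, 1 fell and 6 did not pass, beside 10.5% of all genes higher and 9.04% lower. With the deposited values 1 rose and 3 fell (median change -0.19), beside 3.97% and 43.3% of all genes (median -0.25). Their part in the member changes was not tested. The sum of 8 fibroblast and endothelial markers was 2973, 3201 and 3667 with Ncoa3 shRNA and 2214, 2534 and 2772 with control shRNA. The sum did not overlap between the groups, 1 of these markers rose and 0 fell, and 5 passed the F test. With the block 4 rose and 2 fell, beside 20.8% of all genes higher and 18.6% lower. With the deposited values 0 rose and 5 fell (median change -0.15), beside 3.97% and 43.3% of all genes (median -0.25). The sum was highest in experiment 3, yet 5 of the 8 markers were lower there in both groups than in experiments 1 and 2. Their part in the member values was not tested. Of 9 oligodendrocyte lineage markers 2 rose and 2 fell, with sums of 2806 to 3174 on Ncoa3 shRNA arrays and 2648 to 2890 on control arrays. With the deposited values 1 of them rose and 4 fell. These log2 signals have no true 0, so none of the markers can be called absent.

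Few other genes of mitochondrial translation passed the test between the shRNAs. Of all genes 19.5% passed, and 39.3% with the experiment as a block. Of 5 measured mitoribosomal genes under other symbols, 0 passed (median change 0.18, with 1 rise under the block). Aurkaip1 stood at 0.18 (limma's adjusted p = 0.134), Ptcd3 at -0.24 (0.149) and Gadd45gip1, which passed with the block, at 0.22 (0.178, and 0.0130). With the deposited values Aurkaip1 and Gadd45gip1 had the opposite sign, at -0.04 (0.380) and -0.06 (0.533), and did not pass. Of 11 mitochondrial translation factors 0 passed (median -0.08), and 1 rose and 2 fell with the block. Gfm2, which recycles ribosomes, stood at -0.36 (0.0893, and 0.00808 with the block), Mtrf1l, a release factor, at -0.28 (0.160) and Gfm1, an elongation factor, at -0.28 (0.416, and 0.0404 with the block).

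Of 28 mitoribosome assembly genes 1 rose and 2 fell (10.7% passed, beside 19.5% of all genes and 10.4% of those at or above the median signal). With the block 4 rose and 4 fell (39.3% of all genes passed). Mterf3 fell by 0.30 (limma's adjusted p = 0.0290) and Mrm2, which methylates the large ribosomal RNA of mitochondria, fell by 0.38 (0.0320). The deposited value of Mterf3 was the same in experiments 1 and 2 within each group. Nsun4, which methylates the small ribosomal RNA and takes part in joining the subunits, rose by 0.35 (0.0420). The deposited value of Nsun4 was the same on all Ncoa3 shRNA arrays, and with the deposited values its change was 0.06 and did not pass (0.392). Of 18 mitochondrial tRNA synthetase genes 1 rose and 0 fell (19.5% of all genes passed). With the block 3 rose and 3 fell (39.3% of all genes passed). Fars2, for phenylalanine, rose by 0.48 (0.0452), also with a single deposited value on the Ncoa3 shRNA arrays, and did not pass with the deposited values (0.19; 0.161). Wars2 shared that feature, at -0.20 (0.144), and Tars2 stood at 0.17 (0.127, and 0.0307 with the block). With the deposited values Tars2 had the opposite sign, at -0.10 (0.00322), where the median change of all genes was -0.25. The 3 control arrays of Tars2 carry a single deposited value, and its Ncoa3 shRNA arrays of experiments 2 and 3 share another. Its small p rests on these shared values.

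Among 24 genes of mitochondrial DNA transcription and RNA handling 0 rose and 2 fell. That is 8.33%, beside 19.5% of all genes and 10.4% of those at or above the median signal. With the block 1 rose and 6 fell (39.3% of all genes passed). Gabpa, the ETS factor whose core motif stood in 33.3% of the member windows, measured 7.28, 7.28 and 7.14 with Ncoa3 shRNA and 7.60, 7.70 and 7.48 with control shRNA. It fell by 0.36 ± 0.0808 (SE; limma's adjusted p = 0.0287), with no overlap, and its Ncoa3 shRNA arrays shared a single deposited value. Pnpt1, a polynucleotide phosphorylase of mitochondrial RNA, fell by 0.32 (0.0229), and Polg2, a subunit of the mitochondrial DNA polymerase, stood at -0.33 (0.0610, and 0.00892 with the block). The deposited value of Pnpt1 was the same in experiments 2 and 3 within each group, and that of Polg2 on all control arrays. The windows of the 4 members that fell held 0 matches to the NRF1, ETS or YY1 motifs, which says only that these letters were not in these windows.

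**Figure D4:**
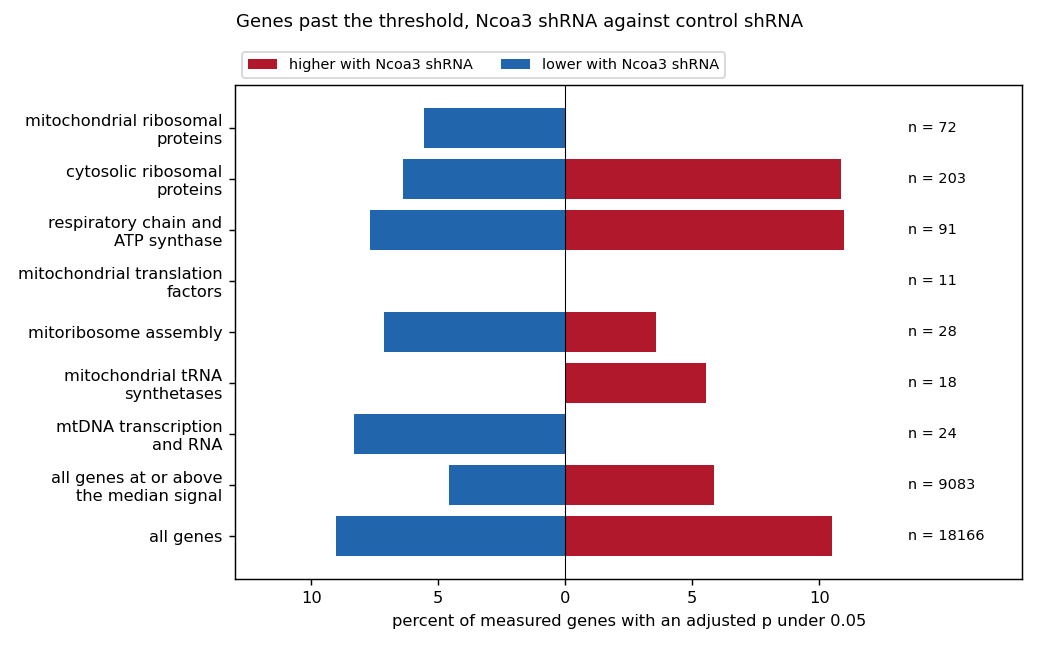
Percent of the measured genes of each list with an adjusted p under 0.05, higher (red, right) or lower (blue, left) with Ncoa3 shRNA; n is the number of genes. The 72 mitochondrial ribosomal protein genes show 5.56% lower and 0 higher, and all genes 9.04% lower and 10.5% higher.

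Related gene groups are given for comparison. Of 203 cytosolic ribosomal protein genes, many of them copies by name, 22 rose and 13 fell (17.2% passed, median change 0.05). Of 91 genes of the respiratory chain and ATP synthase 10 rose and 7 fell (18.7%, median 0.09), beside 19.5% of all genes. The respiratory genes are bright, with median deposited signals of 10.3 to 10.8 by array. Of genes at or above the median signal 10.4% passed. The balance turned with the scaling, as it did for all genes. With the deposited values 5 cytosolic genes rose and 64 fell (median -0.20), and 3 respiratory genes rose and 15 fell (median -0.08). Of all genes 3.97% were then higher and 43.3% lower. With the block 35 cytosolic genes rose and 32 fell, beside 39.3% of all genes (20.8% higher, 18.6% lower). The difference between these lists was not tested. Of the head-to-head neighbours of members, Eme1, a nuclease subunit gene beside Mrpl27, changed by 0.32 ± 0.0422 (SE; limma's adjusted p = 0.00534) while Mrpl27 stood at 0.09 (0.388). Psma2 stood at 0.35 (0.0777, and 0.0131 with the block) beside Mrpl32 at -0.03 (0.930). Mrpl46 and Mrps11, which share a promoter window, stood at -0.00 (0.993) and 0.08 (0.786).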

How the data were processed

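RNA of 6 cultures, 3 per shRNA, was hybridised to Affymetrix arrays with 1 colour. The deposited values are log2 signals of probe sets. The submitters' processing notes name Affymetrix Expression Console as the authors' tool. Its version, summarisation, normalization and build were not given in the sources used here. RNA was extracted with a mirVana kit, per the labels' protocols.

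Of 36685 probe sets, 18511 carry 1 gene symbol in the platform annotation, 575 carry several and 17599 carry none and are unnamed here. Where a gene had several (291 genes), the brightest was kept. This left 18166 genes, and 18060 of them were found in RefSeq by gene ID. No coordinates of probe sets were used. All probe sets were quantile-normalized over the 6 arrays, which removes any change common to most genes. The test was limma's (version 3.58.1, R 4.3.3; lmFit and eBayes with trend), two-sided. Its p-values were adjusted by Benjamini-Hochberg over all 18166 genes, at a threshold of 0.05. Experiments were tested with limma's F test in a fit of shRNA and experiment. The limma fit was tested on simulated data. Only the fit with the block met simulated differences among experiments there, so the main fit was not tested under such differences. Arrays were paired by experiment number, which the labels give. Deviations from the group means correlated over genes at r = 0.72, 0.55 and 0.78 between arrays of the same experiment and at -0.73 to 0.50 between arrays of different experiments, and genes are not independent replicates. The labels describe separate experiments, and nothing more is said of how the cultures were kept apart. The number of arrays limits the precision.

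The members and lists were chosen with earlier results of these data known, and Mief1, which is no translation factor, was taken off a list after its values were seen. Named were members past the threshold with the same sign in all experiments, the 4 highest and 4 lowest in signal, the Mrps18 paralogs and stalk genes, the 4 with the largest F, the 3 genes with the smallest p in each list of related genes, and Ncoa3; other genes named were chosen after their values were seen. Alternatives were the deposited values, median-centred arrays, the experiment as a block, a filter on dim genes, averaged probe sets, no trend, and leaving out arrays or experiments. Promoter windows are RefSeq's (GRCr8), and amino acid sequences were not used here.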

Additional observations from a re-analysis of the deposited data

How the results depend on the processing

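Of the members 4 were lower and 0 higher, beside 9.04% and 10.5% of all genes. Without the trend 5 members were lower. Averaging probe sets could change no member's values, since 0 members have several. The deposited values gave 12 lower and a median of -0.20, with 0 higher, because their offset between groups stays in. Of all genes 43.3% were then lower and 3.97% higher. Median-centred arrays gave 4 lower and 2 higher, beside 9.07% and 12.4% of all genes. There Mrps14 lost its call (limma's adjusted p = 0.0623), and Mrps35 (0.0312), Mrpl37 (0.0291) and Mrpl53 (0.0474) gained one. The replicate block gave 8 lower and 4 higher, beside 18.6% and 20.8% of all genes. With deposited values the block gave 25 lower and a median of -0.20, beside 55.9% of all genes lower. Among genes at or above the median signal 2 were lower, Mrpl47 and Mrpl10, with fewer genes tested. Leaving out 1 array or experiment gave 0 to 10 lower and 0 to 5 higher, the upper ends without experiment 3, where 46.0% of all genes passed. Their median changes ran from -0.052 without control shRNA replicate 3 to 0.13 without Ncoa3 shRNA replicate 3. Without experiment 1 or 2 limma passed 0 members at the adjusted threshold (5 and 3 at an unadjusted p below 0.05), and 223 and 0 of all genes. Members that differ among experiments numbered 13, beside 18.8% of all genes. With the deposited values 1 member did, beside 1.91% of all genes. The cause was not tested. With the deposited values 1 of 72 members turned from a change above 0 to a call below 0, Mrpl18 (-0.26). With the deposited values and the replicate block 7 did, among them Mrpl18 (-0.26), Mrps23 (-0.27) and Mrps6 (-0.18), with changes from -0.27 to -0.17. Other changes of call under the block are given beside the genes.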
